A study of Mus musculus with 12 samples.

Results

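Mouse bone marrow cultures that carried M33-MEIS1 on top of the leukaemia fusion gene NUP98-HOXD13 were compared with cultures that carried the empty vector MIY on top of the same fusion gene. The comparison rests on the 6 arrays whose titles name these constructs, 3 with M33-MEIS1 and 3 with MIY-ctrl, of 12 arrays in the series. The other arrays came from cultures with MEIS1-deltaHD, a form of MEIS1 that lacks the homeodomain, and with full-length MEIS1-WT, again 3 of each. NUP98-HOXD13 was therefore present in every group, the controls included. The cells were marrow of (C57Bl/6Ly-Pep3b x C3H/HeJ) F1 mice that had received 5-fluorouracil, transduced with an ND13-GFP or ND13pac retrovirus and grown for 4 weeks with 10 ng/ml human IL-6, 6 ng/ml mouse IL-3 and 100 ng/ml mouse stem cell factor. The second virus entered during 2 days of co-culture with irradiated E86 producer cells, a fibroblast line, and RNA was taken from sorted cells. The labels do not state the age of the mice, the gate of the sort, the vector promoters, the clonality of the lines or the interval before RNA was taken. The series record describes the 3 arrays of a group as independent experiments.

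MEIS1 is a homeobox factor of the TALE class. It binds DNA with PBX and HOX proteins, and in mice it speeds up the leukaemia that NUP98-HOX fusions or Hoxa9 start. M33 is the older name of Cbx2, a chromodomain protein of Polycomb repressive complex 1, which keeps genes silent. The labels describe the construct by its name alone, so what parts of either protein it holds is not known here.

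On each of the 45037 probe sets that are not array controls, the question was whether M33-MEIS1 differed from the empty vector by more than the spread between arrays. Values are signals on a linear scale in arbitrary units, and differences are on the log2(signal + 16) scale, which understates the ratio of dim genes. A probe set was called when its adjusted p from limma, fitted to all 12 arrays and adjusted over all probe sets by Benjamini and Hochberg, was below 0.05. No probe set was removed for low signal. Of the 45037 probe sets, 3511 (7.8%) were higher and 4992 (11.1%) lower with M33-MEIS1 than with MIY-ctrl, 18.9% in either direction. At the level of genes, with the brightest probe set standing for a gene, 4512 of 18193 (24.8%) were called, of which 2011 (11.1%) were higher and 2501 (13.7%) lower. Counts for gene lists stand beside these shares of 11.1% higher and 13.7% lower. Differences of at least 1 on the log2 scale were more often downward, in 376 genes against 117 upward. The 3 arrays of one group lay wholly beyond the 3 of the other for 4400 of the called genes. A rank-based exact test of 3 against 3 arrays cannot go below a two-sided p of 0.1, so the calls rest on the spread that limma shares across genes and groups.

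The split of higher against lower depends on how arrays are scaled. With the authors' scaling the median difference over all probe sets was -0.095 and 41.3% of the called probe sets were higher. Quantile normalization raised that median by 0.112 and gave 53.9% higher (4010 higher and 3436 lower), and scaling to equal medians raised it by 0.148 and gave 81.8% higher (6554 higher and 1454 lower). At the level of genes median scaling called 20.2% higher (3684) and 4.02% lower (732), the shares beside which list counts under that scaling stand. The median signal of an array was 14 to 16 with M33-MEIS1, against 17.3 to 21.6 with MIY-ctrl. The 3' to 5' signal ratio was 1.31 to 1.44 for actin with M33-MEIS1, against 1.49 to 1.51 with MIY-ctrl, and 0.83 to 0.88 for Gapdh, against 0.77 to 0.80. The part of RNA quality in the differences was not tested. Replicate 3 of M33-MEIS1 stood apart on the third principal component (7.9% of the variance), at 49.9 against -7.7 and -7.3 for replicates 1 and 2. The first component (40.2%) set MIY-ctrl, at -76.3 to -58.5, apart from M33-MEIS1, at 7.4 to 14.4. MEIS1-WT, at 23.3 to 29.7, and MEIS1-deltaHD, at 22.9 to 29.4, lay on the side of M33-MEIS1 and further out, so this component is not particular to M33-MEIS1. Closely related genes, such as Lyz1 and Lyz2 or members of the Ifit, Slfn and Mcpt families, may share probes, and their signals may not be separate.

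**Figure D1:**
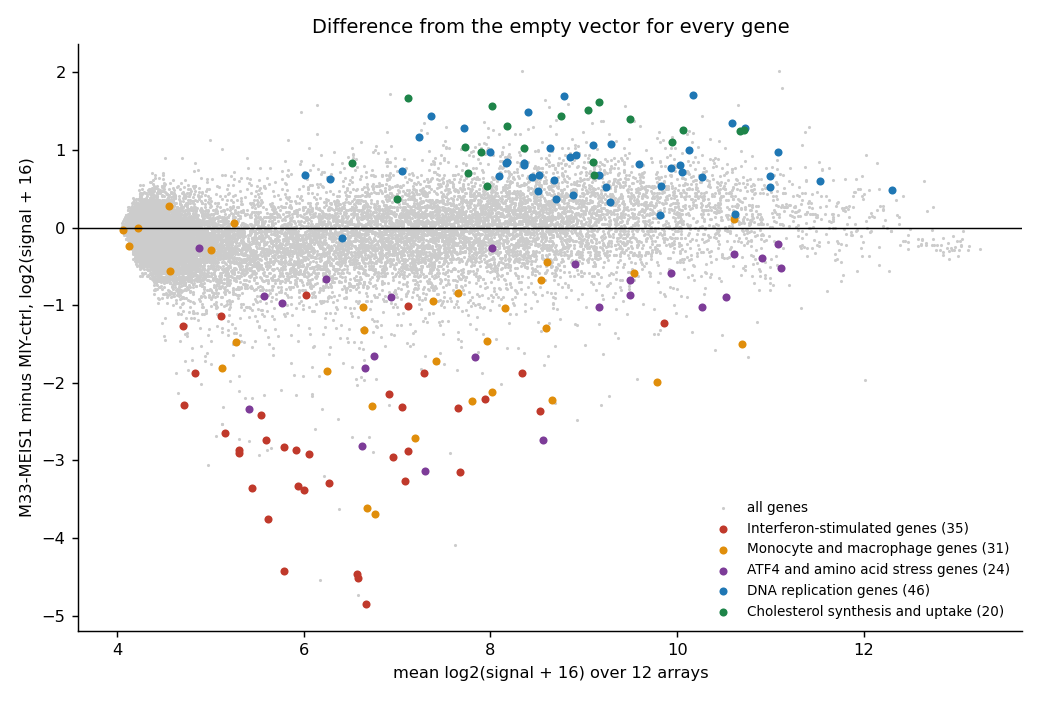
Difference between M33-MEIS1 and MIY-ctrl on the log2(signal + 16) scale (vertical axis) against the mean log2(signal + 16) over the 12 arrays (horizontal axis), 1 point per gene. Interferon-stimulated genes (red) lie below 0 throughout, with a median of -2.83, and cholesterol genes (green) lie above 0, with a median of 1.17, while the median of all genes is -0.089.

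Interferons signal through the receptors Ifnar1 and Ifnar2 and the kinases Jak1 and Tyk2 to a complex with Stat2 and Irf9, which binds the interferon-stimulated response element in front of its targets. To show where such elements stand in front of genes that changed together, the 170 bases before the RefSeq start of 3 interferon genes that fell are printed first, then those of an ATF4 target that fell and of a replication gene that rose (build GRCm38.p6, 5' to 3' on the strand of the gene, matches in capitals). For Rsad2, Ifit1 and Ifit3 the capitals mark matches on either strand to the core of that element, GAAA and GAAA with 2 bases of any kind between them, for Nupr1 matches to TGATGNAA, the core of the element bound by ATF4 with C/EBP proteins, and for Mcm5 matches to TTTNGCGC, the core of the E2F site.
Rsad2 (chr12:26456453-26456622, minus strand): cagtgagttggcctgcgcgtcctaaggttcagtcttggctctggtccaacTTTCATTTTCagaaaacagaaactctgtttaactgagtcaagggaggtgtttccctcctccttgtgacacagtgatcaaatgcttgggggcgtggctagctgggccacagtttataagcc
Ifit1 (chr19:34640719-34640888, plus strand): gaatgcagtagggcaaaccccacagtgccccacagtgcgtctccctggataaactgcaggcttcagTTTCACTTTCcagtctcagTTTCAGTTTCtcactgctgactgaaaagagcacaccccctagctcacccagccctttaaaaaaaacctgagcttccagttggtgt
Ifit3 (chr19:34583359-34583528, plus strand): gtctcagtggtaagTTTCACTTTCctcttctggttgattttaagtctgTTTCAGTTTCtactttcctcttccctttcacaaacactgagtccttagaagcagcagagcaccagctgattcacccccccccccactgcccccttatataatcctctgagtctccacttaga
Nupr1 (chr7:126625471-126625640, minus strand): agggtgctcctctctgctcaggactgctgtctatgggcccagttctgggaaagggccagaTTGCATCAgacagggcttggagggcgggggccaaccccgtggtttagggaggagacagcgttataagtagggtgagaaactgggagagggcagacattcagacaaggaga
Mcm5 (chr8:75109339-75109508, plus strand): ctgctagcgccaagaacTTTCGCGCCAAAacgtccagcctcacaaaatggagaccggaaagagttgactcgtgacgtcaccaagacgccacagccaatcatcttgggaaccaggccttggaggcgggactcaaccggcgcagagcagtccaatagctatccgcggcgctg
The match began 120 bases before the start in Rsad2, 104 and 85 bases before it in Ifit1, and 156 and 122 bases before it in Ifit3. In Mcm5 the capitals join 2 overlapping matches, 1 on each strand, that began 153 and 149 bases before the start.

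Over the RefSeq windows from 250 bases before to 50 bases after a start, the interferon element core stood in 15 of the 25 interferon-stimulated genes with a window, against 3.99% of all 27025 genes with one. Among all called genes with a difference of at least 1, it stood in 16.6% of the 289 lower genes with a window, against 2.04% of the 98 higher ones. Those lower genes include interferon-stimulated genes already counted, so this share is not a separate observation. TGATGNAA stood in 7 of 19 ATF4-linked genes that fell (36.8%), against 4.51% of all genes, and TTTNGCGC in 9 of 35 replication genes that rose (25.7%), against 1.57%. For the cholesterol genes the letters TCACNCCAC, a core of the sterol response element, stood in 1 of 15 genes that rose (6.67%), against 1.44%. The letters TGACAG, a core of the MEIS site, stood in 21.5% of the genes lower by at least 1 and in 21.4% of those higher by at least 1, against 21.6% of all genes. These are matches of letters, searched on both strands, not measured binding. A single motif was counted per search, and none of these motifs contains another.

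The probe sets of the genes in the constructs gave the first check of the labels. Cbx2 probe set 1422059_at read 40.9, 59.8 and 53.1 with M33-MEIS1, against 12.9, 2.01 and 6.48 with MIY-ctrl. All 3 M33-MEIS1 arrays were higher than any of the other arrays of the series, which lay between 2.01 and 14.7. The other Cbx2 probe set, 1434116_at, read 72.9, 66.1 and 52.7 with M33-MEIS1, against 78.8, 104 and 63.6 with MIY-ctrl, and its groups overlapped (difference -0.28 ± 0.17 SE, adjusted p = 0.281). Meis1 itself was not higher. Probe set 1450992_a_at read 133, 113 and 104 with M33-MEIS1, against 205, 189 and 168 with MIY-ctrl (-0.62 ± 0.11, adjusted p = 4.62e-04), although median scaling left a difference of -0.29 (adjusted p = 0.18). Probe set 1443260_at also fell (-1.01 ± 0.16, adjusted p = 2.31e-04), and the third, 1459423_at, read 14.6, 24.9 and 16.3 with M33-MEIS1, against 24.9, 19.0 and 11.4 with MIY-ctrl, without a call (0.02). On 1450992_a_at MEIS1-WT read 129, 145 and 148 and MEIS1-deltaHD 100, 110 and 120, also below MIY-ctrl. On 1443260_at they read 111, 67.4 and 64.3, and 60.6, 58.1 and 76.9, against 150, 168 and 128 with MIY-ctrl. The lower Meis1 signals were therefore not particular to M33-MEIS1, and full-length MEIS1-WT did not raise them. Whether any of these probe sets sees the inserted sequence is not known. For the shared fusion gene, the brighter Nup98 probe set read 258 to 320 with M33-MEIS1, against 329 to 344 with MIY-ctrl, without a call (adjusted p = 0.131), and both Hoxd13 probe sets stayed at or below 15.8 on these 6 arrays.

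**Figure D2:**
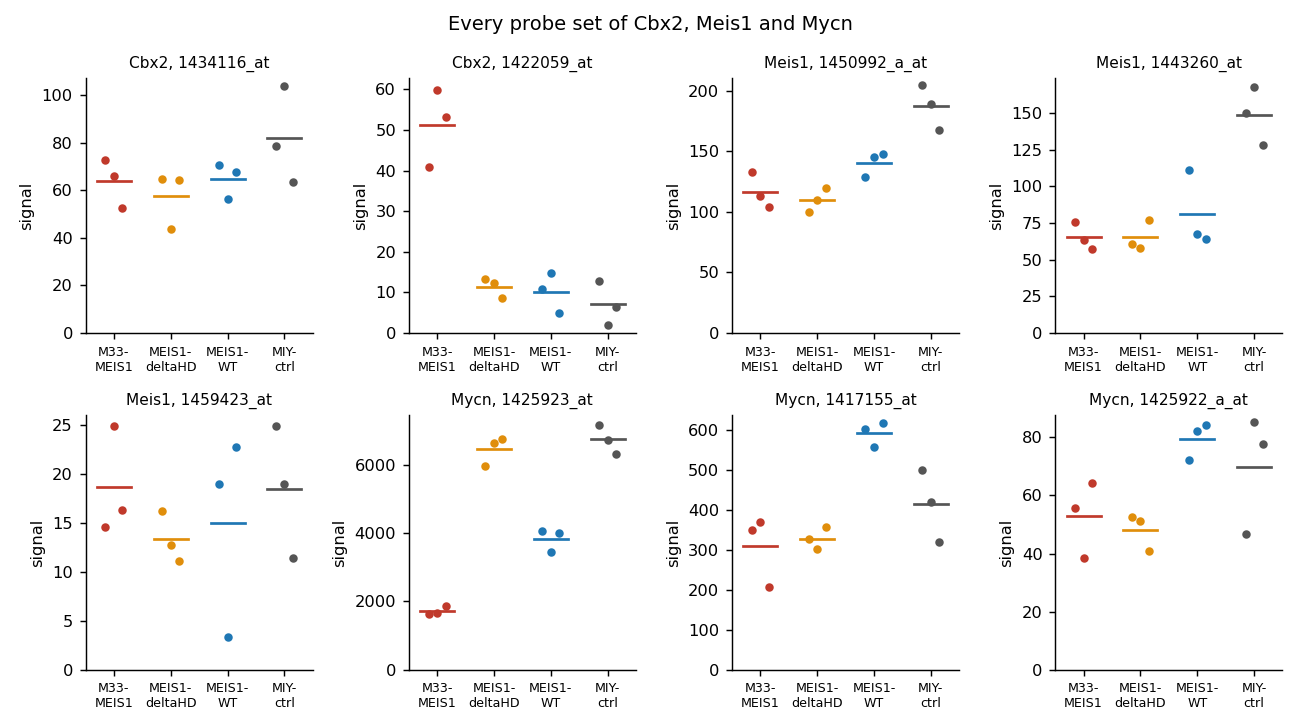
Signal (linear vertical axis starting at 0) of every probe set of Cbx2, Meis1 and Mycn on each of the 12 arrays, grouped by construct, with a point per array and a line at the mean of 3 arrays. Cbx2 1422059_at is higher on the 3 M33-MEIS1 arrays than on all others, and Mycn 1425923_at is lowest there, at 1631 to 1878, against 6331 to 7178 with MIY-ctrl.

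The interferon-stimulated genes fell as a whole. Of 35 on the array, 35 were lower and 0 higher, with a median difference of -2.83, against 13.7% lower and a median of -0.09 over all genes, and 34 remained lower under median scaling. Rsad2, which makes an antiviral nucleotide, had signals of 24.6, 31.0 and 51.6 with M33-MEIS1, against 733, 1542 and 1157 with MIY-ctrl. Rtp4, a regulator of interferon responses, had 38.5, 28.5 and 46.9, against 1307, 1702 and 1593. Usp18, a protease that removes ISG15 and restrains the receptor, had 39.3, 30.0 and 41.4, against 916, 1368 and 1355. In each of these genes the groups were far apart, replicate 1 was the lowest of the MIY-ctrl arrays, and the differences were -4.46 ± 0.23, -4.85 ± 0.15 and -4.52 ± 0.18 in the same order of genes (adjusted p = 6.23e-10, 2.66e-12 and 3.53e-11). Irf7, the factor that amplifies interferon production, had 21.5, 11.9 and 36.6 with M33-MEIS1, against 278, 401 and 439 (-3.33 ± 0.24, adjusted p = 3.24e-08). The smallest difference of the list was that of Gbp3, a guanylate-binding GTPase, at -0.87.

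The ends of the pathway above these targets moved less evenly. Among 21 interferon ligands, receptors and signalling genes, 10 fell and 0 rose, with a median of -0.27. Median scaling changed this split to 3 higher and 6 lower, and leaving out MIY-ctrl replicate 3 gave 2 higher. Irf9, the DNA-binding part of the interferon complex, had 51.9, 61.7 and 66.9 with M33-MEIS1, against 274, 323 and 285 with MIY-ctrl (-2.03 ± 0.12, adjusted p = 3.49e-09). Stat2 had 35.0, 33.8 and 42.7, against 150, 180 and 227 (-1.91 ± 0.15, adjusted p = 6.34e-08). Both are themselves interferon targets. The receptor chain Ifnar2 averaged 336 with M33-MEIS1 and 609 with MIY-ctrl (-0.83 ± 0.09), and the feedback inhibitor Socs3 averaged 280 and 554 in the same order of groups (-0.94 ± 0.11). The other receptor chain, Ifnar1, averaged 143 and 144 without a call, although its dimmer probe set, at 20.2 with M33-MEIS1 and 39.6 with MIY-ctrl, was lower (-0.62 ± 0.19, adjusted p = 0.028). The ligands were dim: Ifnb1 averaged 15.5 with M33-MEIS1 and 21.2 with MIY-ctrl, Ifna4 5.76 and 6.08, and Ifng 3.16 and 2.37, none of them called.

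Related families followed. Of 12 Schlafen and Ifitm genes, 9 fell and 0 rose (median -1.2). Slfn4, a myeloid Schlafen gene, had 47.2, 38.5 and 33.4 with M33-MEIS1, against 1132, 1663 and 1631 with MIY-ctrl (-4.73 ± 0.19, adjusted p = 3.71e-11). Slfn1 (-3.06) and Slfn5 (-2.93) fell too, while Ifitm1 and Ifitm2, among the brightest genes on the arrays at means of 6544 and 3368 with M33-MEIS1 and 7543 and 3802 with MIY-ctrl, were not called. In the MHC class I pathway, 7 of 12 genes fell and 0 rose (median -0.29, and 0.06 with 1 higher and 5 lower under median scaling). The peptide transporter Tap1 had 111, 86.8 and 83.9 with M33-MEIS1, against 229, 253 and 319 (-1.36 ± 0.12), and its partner Tapbp fell by 1.26. H2-D1, a class I heavy chain, averaged 711 with M33-MEIS1 and 1488 with MIY-ctrl (-1.05 ± 0.08), whereas the immunoproteasome subunit Psmb8 averaged 939 and 1003 without a call.

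**Figure D3:**
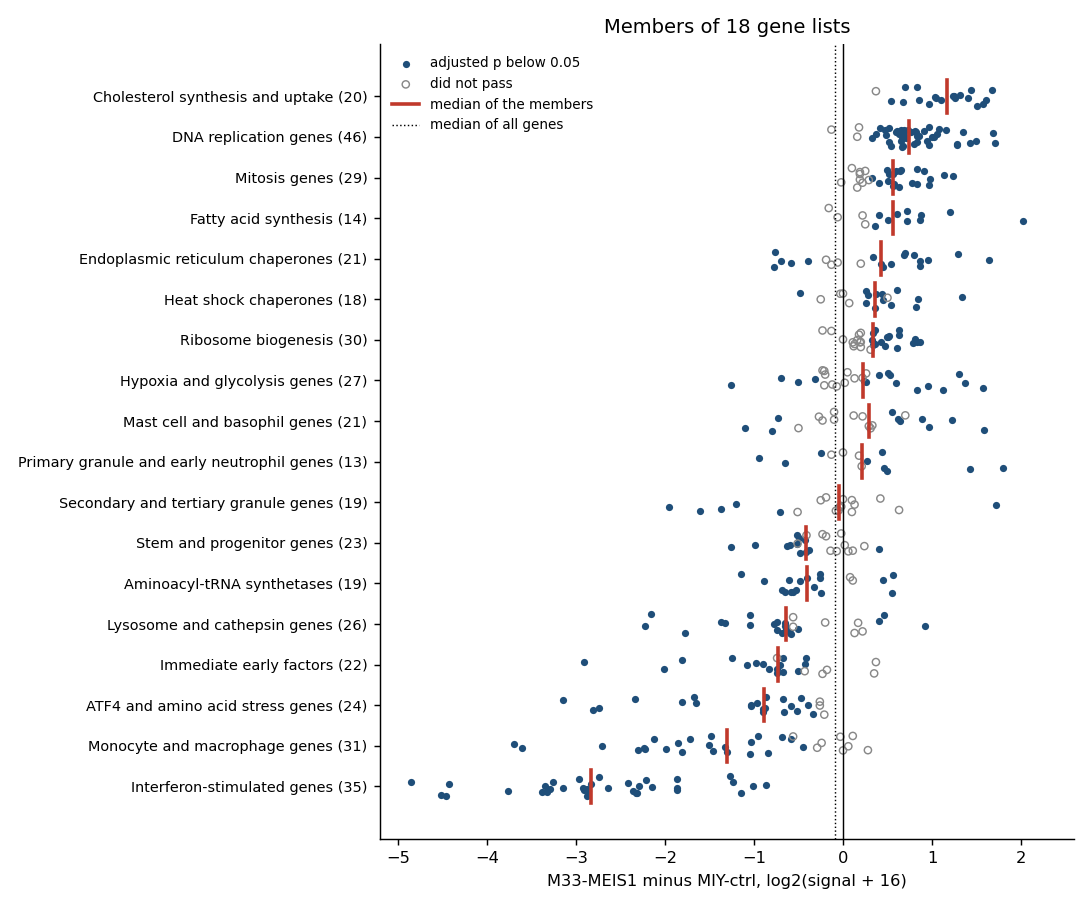
Differences between M33-MEIS1 and MIY-ctrl on the log2(signal + 16) scale for every measured member of 18 gene lists, 1 row per list with its number of members, filled points where the adjusted p is below 0.05. Red bars mark list medians, from 1.17 for cholesterol genes at the top to -2.83 for interferon-stimulated genes at the bottom, and the dotted line marks the median of all genes.

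Genes of monocytes and macrophages were lower by a smaller but broad margin. Of 31, 23 fell and 0 rose (median -1.30), and under median scaling 20 were lower and 1 higher. Lyz2, the myeloid lysozyme, had 1327, 1241 and 1467 with M33-MEIS1, against 5307, 5527 and 5339 with MIY-ctrl (-1.99 ± 0.08, adjusted p = 3.87e-11). Csf1r, the receptor for macrophage colony-stimulating factor, had 618, 628 and 656, against 1521, 1544 and 1707 (-1.30 ± 0.09, adjusted p = 1.27e-08). The arrays of each group lay close together in both genes, and the groups did not overlap. Gpnmb, a glycoprotein of lysosome-rich macrophages, had 60.9, 53.8 and 80.4, against 895, 1278 and 936 (-3.69 ± 0.15). Ms4a4c (-3.61), Ms4a6d (-2.71), the C-type lectin Clec4n (-2.30), the secreted adhesion protein Tgfbi (-2.24) and the cathepsin Ctss (-2.22) fell as well. The members that were not called included Cx3cr1, Marco, C1qa, C1qb and C1qc, of which the last 4 averaged at most 16.4 in either group. The summed signal of the 31 genes was 10448 to 12381 with M33-MEIS1, against 29888 to 33879 with MIY-ctrl. In such bulk samples fewer monocytic cells and less RNA per cell cannot be told apart.

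The factors that drive these lineages split. Of 16 myeloid lineage factors, 7 fell (43.8%, against 13.7% of all genes) and 1 rose (6.25%, against 11.1%), with a median of -0.24. The split was 5 higher and 4 lower under median scaling, and 3 were higher without MIY-ctrl replicate 3. Maf, a macrophage factor, had 5.36, 15.0 and 18.6 with M33-MEIS1, against 114, 208 and 224 with MIY-ctrl (-2.75 ± 0.24, adjusted p = 2.44e-07). Klf4, which favours monocytes, fell by 1.2, and Cebpb fell by 0.87. Tfec, an MiT family factor, was the member that rose, at 753, 691 and 684 against 364, 299 and 563 (0.82 ± 0.15, adjusted p = 7.56e-04). The central factors Spi1 and Cebpa averaged 453 and 466 with M33-MEIS1 and 539 and 465 with MIY-ctrl, neither called. Irf8 was not called either, at 339 with M33-MEIS1 and 294 with MIY-ctrl.

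Of 26 lysosomal genes 17 fell and 3 rose, with a median of -0.64 (9 lower and 4 higher under median scaling). The lower share was 65.4%, against 13.7% of all genes, and the higher share 11.5%, near the 11.1% of all genes. Ctsl, a cysteine cathepsin, had 277, 262 and 326 with M33-MEIS1, against 1025, 880 and 1161 with MIY-ctrl (-1.77 ± 0.11, adjusted p = 3.95e-09). Psap, the precursor of the saposins, had 953, 987 and 1100, against 2323, 2547 and 3115 (-1.37 ± 0.10). The exceptions that rose were Ctse (0.92), Ctsg (0.46) and Gusb (0.41), and Ctsg encodes a granule protease of neutrophils. Of 10 Fc receptor genes 7 fell (70%, against 13.7% of all genes) and 1 rose (10%, near the 11.1% of all genes). Fcgr1, the high-affinity IgG receptor, averaged 130 with M33-MEIS1 and 471 with MIY-ctrl (-1.72 ± 0.13), and the gene that rose was Ms4a2, the beta chain of the IgE receptor (0.62 ± 0.11). Of 9 MHC class II genes, 2 fell (22.2%, against 13.7% of all genes), and 1 under median scaling. Cd74, the invariant chain, had 69.0, 76.7 and 125 with M33-MEIS1, against 242, 308 and 267 (-1.47 ± 0.19), and H2-Ob fell by 0.77. The class II chains H2-Aa, H2-Ab1 and H2-Eb1 averaged at most 49.7 in either group.

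Neutrophil genes moved in both directions. Among 13 primary granule and early neutrophil genes, 6 rose and 3 fell, with a median of 0.21, against 7 higher and 1 lower with a median of 0.57 under median scaling. Ms4a3, a marker of granulocyte-monocyte progenitors, had 3817, 3324 and 3860 with M33-MEIS1, against 1042, 743 and 1433 with MIY-ctrl (1.80 ± 0.15, adjusted p = 1.44e-07). Elane, neutrophil elastase, had 2041, 1793 and 1845, against 800, 402 and 1016 (1.43 ± 0.20, adjusted p = 5.89e-05). In both genes MIY-ctrl replicate 2 was the lowest array and the groups did not overlap. Prtn3 and Ctsg, related serine proteases, rose by 0.50 and 0.46, while Mpo, myeloperoxidase, averaged 7592 with M33-MEIS1 and 6522 with MIY-ctrl without a call. Csf3r, the G-CSF receptor, had 162, 152 and 157, against 301, 323 and 323 (-0.94 ± 0.12, adjusted p = 2.38e-05).

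Genes of later neutrophil stages were more often lower than higher. Of 19 secondary and tertiary granule genes, 1 rose (5.26%, against 11.1% of all genes) and 5 fell (26.3%, against 13.7%). Their summed signal was 2493 to 2925 with M33-MEIS1, against 5793 to 6086 with MIY-ctrl, and 9 members averaged below 20 in each group. Ngp was the 1 that rose, with 204, 243 and 274 with M33-MEIS1, against 48.6, 68.1 and 68.4 with MIY-ctrl. Mmp8, neutrophil collagenase, fell by 1.95 to 936, 890 and 1060, against 3717, 3840 and 3682. Lcn2, an iron-siderophore binder, and Ltb4r1, the leukotriene B4 receptor, differed by -1.61 and -1.2, and Ltf, Camp, Mmp9 and Olfm4 averaged at most 27.5 in either group. Of 11 S100 genes, the calprotectin subunits S100a9 and S100a8 rose by 1.59 ± 0.14 and 0.85 ± 0.17, and S100a6 fell by 0.67 (0.31 and no call under median scaling). The S100 shares were 18.2% higher and 9.09% lower, against 11.1% and 13.7% of all genes. Of 6 NADPH oxidase subunits, 3 were lower and 0 higher, against 1 lower and 3 higher under median scaling. Cybb, the membrane-bound catalytic subunit, had 307, 261 and 343 with M33-MEIS1, against 1018, 1000 and 1497 (-1.88 ± 0.14), and the cytosolic Ncf1 averaged 1080 and 882 without a call.

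Mast cell and basophil genes had 7 of 21 members higher and 3 lower (median 0.29). The higher share was 33.3%, against 11.1% of all genes, and the lower share 14.3%, near the 13.7% of all genes. Mcpt8, a protease of basophils, had 865, 900 and 945 with M33-MEIS1, against 377, 361 and 387 with MIY-ctrl (1.23 ± 0.07, adjusted p = 3.38e-09). Mcpt2, a mast cell chymase, had 139, 122 and 146, against 43.1, 28.0 and 33.7 (1.58 ± 0.21, adjusted p = 2.38e-05). Hdc, which makes histamine, had 339, 282 and 296, against 129, 151 and 164 (0.97 ± 0.11). The arrays did not overlap in any of these 3. Tpsab1, a tryptase, and Ms4a2 rose by 0.89 and 0.62, whereas Cpa3, the mast cell carboxypeptidase, and Gzmb averaged 1939 and 999 with M33-MEIS1 and 1689 and 939 with MIY-ctrl, neither called. Hpgds, the prostaglandin D2 synthase, fell by 1.10, the shared IgE receptor chain Fcer1g by 0.80 and the amine transporter Slc18a2 by 0.73. The summed signal of the 21 genes overlapped, at 7292 to 8126 with M33-MEIS1 and 6675 to 8929 with MIY-ctrl.

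The stress pathway of amino acid shortage, in which ATF4 switches on transporters and synthetic enzymes, was lower. Of 24 genes 21 fell and 0 rose (median -0.89), and 13 were lower under median scaling. Trib3, a pseudokinase induced by this pathway, had 72.3, 90.4 and 76.0 with M33-MEIS1, against 803, 986 and 711 with MIY-ctrl (-3.14 ± 0.15, adjusted p = 3.18e-10). Nupr1, a small stress-induced chromatin protein, had 212, 209 and 209, against 1575, 1421 and 1480 (-2.74 ± 0.12, adjusted p = 9.95e-11). Atf5 had 49.0, 46.8 and 42.1, against 413, 458 and 387 (-2.81 ± 0.14). The 3 arrays of a group nearly coincided in Nupr1. Ddit3, which encodes CHOP, fell by 1.67, and Asns, asparagine synthetase, averaged 1003 with M33-MEIS1 and 2079 with MIY-ctrl (-1.03). Among 19 aminoacyl-tRNA synthetases, the enzymes that load tRNAs, 14 fell and 3 rose (2 and 5 under median scaling). These were 73.7% and 15.8%, against 13.7% lower and 11.1% higher over all genes. Sars fell the most, to 874, 834 and 821 against 1985, 1858 and 1808 (-1.14 ± 0.06, and -0.79 under median scaling), while Farsa, Hars and Kars rose by 0.55, 0.56 and 0.45.

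Chaperone genes rose over the same arrays. Of 21 genes for chaperones and stress sensors of the endoplasmic reticulum, 12 rose and 5 fell (median 0.43). Sdf2l1, a cofactor of the chaperone Hspa5, had 486, 487 and 517 with M33-MEIS1, against 141, 117 and 196 with MIY-ctrl (1.64 ± 0.13, adjusted p = 1.10e-07). Creld2 rose by 1.29 and Hspa5 itself by 0.43. The 5 that fell were Ern1 (-0.78) and Atf6 (-0.70), both stress sensors, with Herpud1 (-0.76), Sel1l (-0.58) and Dnajb9 (-0.39) of the degradation machinery, and 2 of the list fell under median scaling. Of 18 heat shock chaperones of cytosol and mitochondria, 12 rose and 1 fell. These were 66.7% and 5.56%, against 11.1% higher and 13.7% lower over all genes. Hsph1, an HSP110 chaperone, had 652, 621 and 601 with M33-MEIS1, against 242, 235 and 233 (1.34 ± 0.07, adjusted p = 7.91e-10). Hspa9, the mitochondrial HSP70, was the 1 that fell (-0.48, and -0.13 without a call under median scaling), and the heat-inducible Hspa1a averaged 8.82 and 6.97 without a call.

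Genes for DNA replication rose almost without exception. Of 46, 43 were higher and 0 lower (median 0.74), against 11.1% higher over all genes. Fen1, the flap endonuclease of lagging-strand synthesis, had 1583, 1458 and 1458 with M33-MEIS1, against 447, 389 and 508 with MIY-ctrl (1.71 ± 0.09, adjusted p = 9.90e-10). Tk1, thymidine kinase, had 561, 546 and 577, against 160, 103 and 257 (1.69 ± 0.18, adjusted p = 2.89e-06). Cdc6, which loads the replicative helicase, had 437, 410 and 443, against 165, 104 and 167 (1.49 ± 0.12). MIY-ctrl replicate 2 was the lowest array in all 3 of these genes, and every M33-MEIS1 array was above every MIY-ctrl array. Ccne1, cyclin E1, rose by 1.43, the ribonucleotide reductase subunits Rrm1 and Rrm2 by 1.35 and 1.28, and the helicase subunit Mcm5 by 0.97. Cdt1, Prim1 and E2f2 were not called (0.18, 0.16 and -0.13).

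Mitosis genes rose by less. Of 29, 20 were higher and 0 lower (median 0.56). Birc5, survivin, had 1519, 1323 and 1278 with M33-MEIS1, against 617, 373 and 802 with MIY-ctrl (1.24 ± 0.17, adjusted p = 3.36e-05), Ccna2, cyclin A2, rose by 1.13, and Mki67 averaged 1799 and 1536 without a call. Among 16 genes of D cyclins, CDKs, CDK inhibitors and the Rb1 group (Rb1, Rbl1 and Rbl2), 5 fell and 1 rose. These were 31.2% and 6.25%, against 13.7% lower and 11.1% higher over all genes. Median scaling gave 1 lower and 5 higher, and the higher count was 3 without MIY-ctrl replicate 3 and 2 without M33-MEIS1 replicate 1. Cdkn1a, the p21 inhibitor, had 542, 525 and 545 with M33-MEIS1, against 892, 1176 and 873 (-0.84 ± 0.12, adjusted p = 4.47e-05, and -0.48 under median scaling with adjusted p = 0.00704). Cdk4 rose by 0.62, and the D cyclin gene Ccnd2 averaged 1415 with M33-MEIS1 and 1457 with MIY-ctrl without a call. Of 18 p53 targets 6 fell (33.3%, against 13.7% of all genes) and 2 rose (11.1%, as over all genes). Under median scaling 3 fell and 6 rose. Gadd45a had 135, 122 and 102 with M33-MEIS1, against 250, 299 and 274 with MIY-ctrl (-1.10 ± 0.11). Ccng1 was the stronger of the 2 that rose (0.65). In the Bcl-2 family 5 of 14 fell and 0 rose (2 and 4 under median scaling), with Bmf (-1.10) and Bbc3 (-0.97), both death-promoting, ahead of the survival genes Bcl2 (-0.43) and Mcl1 (-0.39), which lost their calls under median scaling.

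Cholesterol synthesis rose along the whole pathway. Of 20 genes 19 were higher and 0 lower (median 1.17), and Tm7sf2 (0.37) was the 1 that was not called. Nsdhl, a sterol dehydrogenase, had 787, 764 and 773 with M33-MEIS1, against 238, 216 and 276 with MIY-ctrl (1.61 ± 0.08, adjusted p = 6.53e-10). Hsd17b7, another enzyme of the late pathway, had 170, 163 and 196, against 35.4, 46.1 and 51.9 (1.67 ± 0.11). Sqle, which makes squalene epoxide, had 921, 973 and 967, against 298, 407 and 357 (1.40 ± 0.09). Early steps moved alike, with Hmgcs1 at 1.24 and Idi1 at 1.10, and Srebf2, the factor that drives the pathway, rose by 0.54. Of 14 fatty acid synthesis genes 10 rose and 0 fell (median 0.56). Scd1, a desaturase that introduces the first double bond, had 427, 499 and 411, against 123, 44.3 and 157 (2.02 ± 0.26, adjusted p = 1.82e-05), with MIY-ctrl replicate 2 far below the others, and Fasn rose by 0.86.

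Among 13 LXR targets and lipid handling genes, 6 fell and 1 rose, and 3 rose under quantile normalization or median scaling and 2 without MIY-ctrl replicate 3. Abca1, the cholesterol exporter, had 28.5, 33.1 and 28.7 with M33-MEIS1, against 123, 98.8 and 121 with MIY-ctrl (-1.50 ± 0.18, adjusted p = 8.75e-06), Abcg1 fell by 0.93, and Lpcat3, a phospholipid enzyme, was the 1 that rose (0.43). Of 14 iron genes, 3 rose and 4 fell (5 and 2 under median scaling). Tfrc, the transferrin receptor, had 3261, 2954 and 3258, against 899, 528 and 942 (2.02 ± 0.14, adjusted p = 2.00e-08), and Alas1, the first enzyme of haem synthesis, had 931, 984 and 877, against 351, 320 and 377 (1.37 ± 0.08). Hmox1, which breaks haem down, fell by 1.05. The other gene that rose was Aco1 (0.40), which did not pass without MIY-ctrl replicate 1 or 2 or any single M33-MEIS1 replicate (adjusted p = 0.052 to 0.216), while another of its probe sets rose by 0.43 (adjusted p = 0.0162).

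Of 27 hypoxia and glycolysis genes 12 rose and 4 fell (median 0.22, and 15 and 1 under median scaling). The shares were 44.4% higher and 14.8% lower, against 11.1% and 13.7% of all genes. Egln3, an oxygen-sensing hydroxylase, had 853, 874 and 939 with M33-MEIS1, against 280, 278 and 310 with MIY-ctrl (1.57 ± 0.07, adjusted p = 9.95e-11). Bnip3, a mitophagy receptor, rose by 1.37, triose phosphate isomerase Tpi1 by 1.30 and lactate dehydrogenase Ldha by 0.83. Vegfa, a secreted hypoxia target, went the other way, with 55.5, 90.7 and 70.6 against 171, 230 and 183 (-1.26 ± 0.17). Of 30 ribosome biogenesis genes 17 rose and 0 fell (28 and 0 under median scaling), led by Nop56 (0.86) and Bop1 (0.83), while the nucleolar proteins Ncl and Npm1 were not called (0.00 and -0.23).

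**Figure D4:**
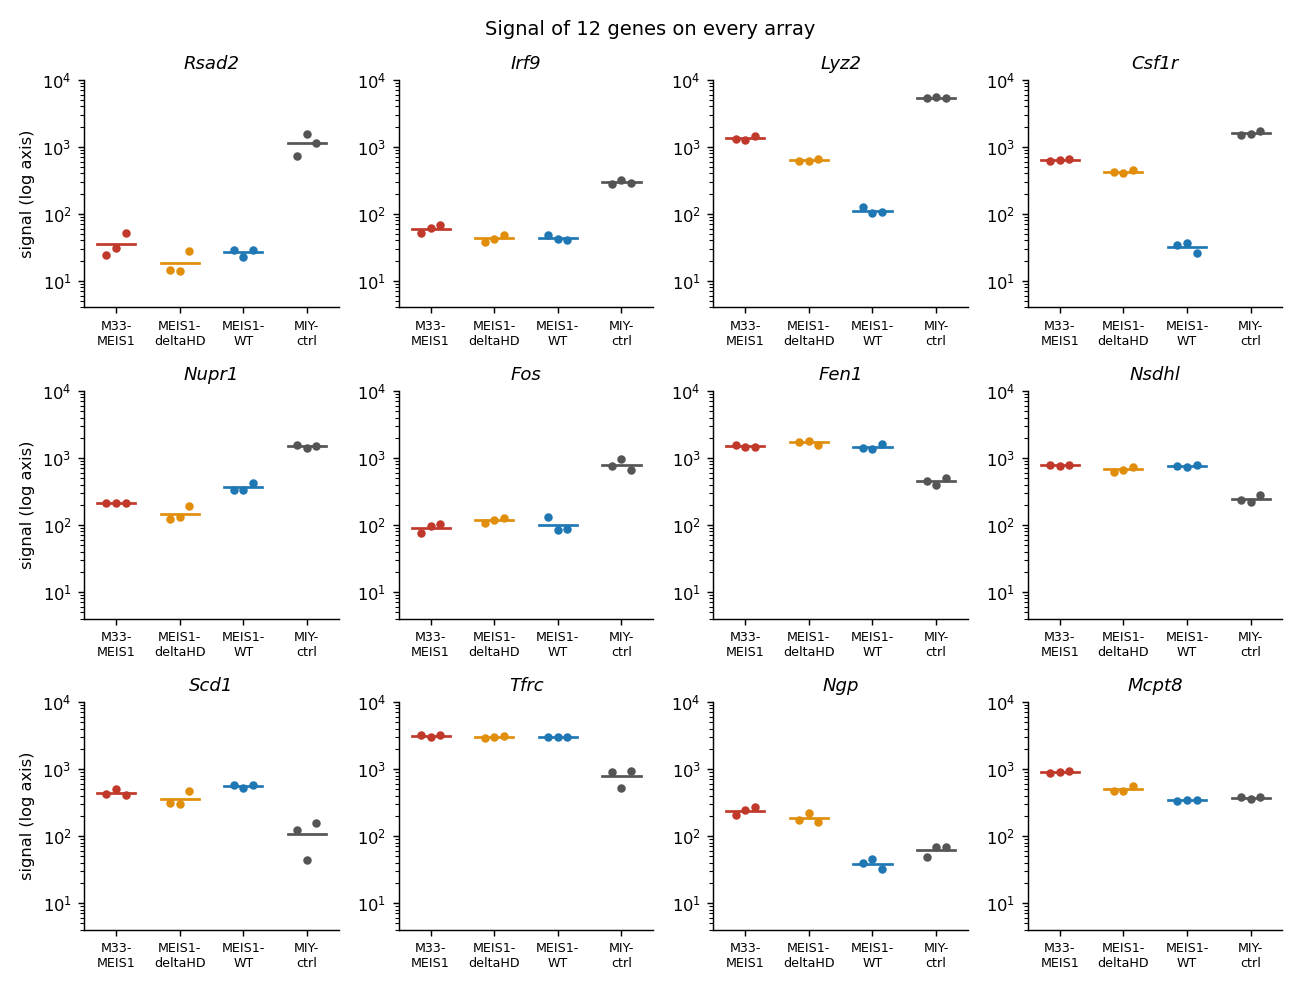
Signal on each of the 12 arrays (log vertical axis, the same range in every panel) of 12 genes, grouped by construct, with a point per array and a line at the mean of 3 arrays. Rsad2, Irf9, Lyz2, Csf1r, Nupr1 and Fos are lower on all 3 M33-MEIS1 arrays than on all 3 MIY-ctrl arrays, and Fen1, Nsdhl, Scd1, Tfrc, Ngp and Mcpt8 are higher.

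Immediate early factors, which cells switch on within minutes of stimulation, were lower in 16 of 22 genes and higher in 0 (median -0.72, with 8 lower under median scaling). Fos had 75.1, 95.9 and 102 with M33-MEIS1, against 753, 961 and 666 with MIY-ctrl (-2.91 ± 0.15, adjusted p = 5.73e-10). Egr1 had 115, 111 and 123, against 433, 793 and 398 (-2.01 ± 0.19), and Atf3 fell by 1.81. MIY-ctrl replicate 2 was the highest array in both Fos and Egr1. The phosphatase Dusp6, a feedback inhibitor of ERK, fell by 1.00, as 1 of 4 lower among 14 MAPK feedback genes (2 under median scaling). Of 13 NF-kB genes 5 fell (1 under median scaling, 3 without MIY-ctrl replicate 1 and 9 without M33-MEIS1 replicate 3), led by the inhibitor Nfkbiz (-1.33 ± 0.14).

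Among 30 chemokines and cytokines 9 fell and 0 rose, with 8 lower and 3 higher under median scaling. Ccl2, which attracts monocytes, had 12.5, 12 and 11.5 with M33-MEIS1, against 113, 378 and 150 with MIY-ctrl (-2.86 ± 0.30, adjusted p = 2.17e-06). Cxcl10, an interferon-induced chemokine, fell by 1.87 and Csf1, the ligand of Csf1r, by 1.54. The brightest chemokines, Ccl3 and Ccl9, averaged 1758 and 2202 with M33-MEIS1 and 1667 and 2153 with MIY-ctrl, neither called. Of 20 Toll-like receptor genes 8 fell and 0 rose. Tlr7 and Tlr13, sensors of RNA in endosomes, fell by 1.72 and 1.54 and Tlr2 and Tlr4 by 0.98 and 0.94, whereas the adaptor Myd88 was not called (-0.18). Of 25 cytokine and growth factor receptors 14 fell and 1 rose (8 and 1 under median scaling). These were 56% and 4%, against 13.7% lower and 11.1% higher over all genes. Cxcr4, the receptor that holds progenitors in marrow, was the 1 that rose, at 0.66, and the IL-3 and GM-CSF receptor chain Csf2rb averaged 1949 and 2224 without a call.

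P2rx3, an ATP-gated channel known mainly from sensory neurons, was among the 10 genes with the largest falls, with 54.4, 46.3 and 59.9 with M33-MEIS1, against 1178, 1344 and 1000 with MIY-ctrl (-4.09 ± 0.13, adjusted p = 2.14e-12). The P2 receptors of myeloid cells changed less, with P2ry6 at -1.04 and P2ry14 at -0.84, and 6 of 11 fell and 0 rose (3 lower under median scaling). Of 9 RGS genes, brakes of G-protein signalling, 5 fell (1 under median scaling and 3 without M33-MEIS1 replicate 1 or 2), with Rgs1 at -0.96 ± 0.22 and Rgs2 at -0.75 ± 0.14 (-0.40 without a call under median scaling). Of 15 leukocyte integrins 6 fell and 0 rose (3 and 1 under median scaling), led by Itgal (-1.18 ± 0.09) and Itgam (-1.03 ± 0.13).

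In the Myc network Mycn changed most. Probe set 1425923_at read 1631, 1661 and 1878 with M33-MEIS1, against 7178, 6733 and 6331 with MIY-ctrl (-1.96 ± 0.09, adjusted p = 9.95e-11). The other Mycn probe sets did not follow. Probe set 1417155_at read 350, 370 and 207, against 500, 420 and 320 (-0.42 ± 0.17, adjusted p = 0.0926), and 1425922_a_at 55.8, 38.4 and 64.3, against 46.6, 85.3 and 77.6 (-0.31 ± 0.18, adjusted p = 0.279). Myc averaged 877 with M33-MEIS1 and 1147 with MIY-ctrl (-0.39, adjusted p = 0.00225, and -0.03 without a call under median scaling). Of the 12 genes 4 were lower and 1 higher (median -0.18). Under median scaling 1 was lower and 1 higher (median 0.13), and 2 were lower under quantile normalization or without MIY-ctrl replicate 1 or 3 or M33-MEIS1 replicate 1 or 2. The gene that rose was Mlx, a partner of glucose-sensing factors (0.66 ± 0.10).

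Genes tied to MEIS1 and to stem cells did not rise as a group. Of 18 genes linked to Meis1 in earlier work, 7 fell (38.9%, against 13.7% of all genes) and 2 rose (11.1%, as over all genes). The counts were 3 and 7 under median scaling, and 1 rose without MIY-ctrl replicate 2 or 3 or M33-MEIS1 replicate 3. This list was chosen with earlier results of these data known. Hlf, a PAR bZIP factor of stem cells, had 80.0, 75.5 and 60.2 with M33-MEIS1, against 186, 246 and 158 with MIY-ctrl (-1.26 ± 0.13, adjusted p = 2.09e-06). Flt3, a receptor kinase of early progenitors, had 67.6, 91.4 and 94.1, against 169, 168 and 137 (-0.80 ± 0.13, adjusted p = 1.81e-04), and both kept their calls under median scaling. Cd34 rose by 0.41, while Myb, Ccl3 and Cdk6 were not called (0.02, 0.08 and -0.06). Of 23 stem and progenitor genes 11 fell (47.8%, against 13.7% of all genes) and 1 rose (4.35%, against 11.1%). Under median scaling 2 fell and 5 rose (21.7%, near the 20.2% of all genes). Kit, the stem cell factor receptor, had 245, 267 and 260, against 410, 376 and 406 (-0.59 ± 0.09, adjusted p = 1.26e-04), but -0.25 without a call under median scaling.

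In the Hoxa cluster 2 of 9 genes fell (22.2%, against 13.7% of all genes) and 1 rose (11.1%, as over all genes). Under median scaling 0 fell and 1 rose. The rising gene, Hoxa7, had 240, 255 and 196 with M33-MEIS1, against 172, 170 and 159 with MIY-ctrl (0.42 ± 0.11, adjusted p = 0.0123), and 0 rose without M33-MEIS1 replicate 1 or 2. Hoxa9, the classical partner of Meis1, had 1651, 1734 and 1568 with M33-MEIS1, against 2421, 2207 and 2208 with MIY-ctrl (-0.46 ± 0.07, adjusted p = 8.01e-05), and -0.10 without a call under median scaling. Of 10 TALE factors 2 fell (20%, against 13.7% of all genes), Meis1 and Pbx3. The count was 0 under median scaling and 1 without MIY-ctrl replicate 1 or M33-MEIS1 replicate 3. Among 18 genes of Polycomb complex 1, the complex of Cbx2, 3 fell (16.7%, near the 13.7% of all genes) and 0 rose, and under median scaling 1 fell and 3 rose (16.7%, against 20.2% of all genes). Phc2 had 205, 266 and 202, against 402, 399 and 377 (-0.78 ± 0.10, adjusted p = 1.62e-05), Pcgf1 fell by 0.62 and Phc3 by 0.47, and the Pcgf1 call was lost without MIY-ctrl replicate 1 or M33-MEIS1 replicate 1 or 3 (adjusted p = 0.057 to 0.0835). Its core subunits Ring1, Rnf2 and Bmi1 were not called (0.11, -0.16 and -0.03). Of 11 genes of Polycomb complex 2, which writes the mark that complex 1 reads, Mtf2 and Eed rose by 0.46 and 0.38, Ezh1 and Aebp2 fell by 0.64 and 0.39, and Ezh2 averaged 680 with M33-MEIS1 and 622 with MIY-ctrl without a call. The called shares of complex 2 were 18.2% each way, against 11.1% higher and 13.7% lower over all genes. Under median scaling 6 rose (54.5%, against 20.2% of all genes) and 0 fell.

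Markers of other lineages were not all dim. The summed signal of 11 erythroid genes was 1422 to 1730 with M33-MEIS1, against 1630 to 2002 with MIY-ctrl. That of 16 megakaryocyte genes was 2432 to 2968, against 2787 to 2988, and that of 11 B cell genes 73 to 103, against 108 to 161. Of 11 B cell genes and 11 erythroid genes 0 were called, by an unfiltered limma test that called 24.8% of all genes, and Cd79a, Pax5, Hba-a1 and Alas2 averaged at most 10.5 in either group. Of 11 T and NK genes 1 fell (9.09%, against 13.7% of all genes), Il7r (-1.30 ± 0.24), with 2 lower without MIY-ctrl replicate 1. Of 16 megakaryocyte genes 2 fell (12.5%) and 1 rose (6.25%), against 13.7% and 11.1% of all genes. Median scaling gave 0 lower and 3 higher, and quantile normalization 2 higher. The rising gene was Pf4, with 720, 694 and 1083 with M33-MEIS1, against 557, 517 and 495, and its call was lost without M33-MEIS1 replicate 3 (0.42, adjusted p = 0.116) or MIY-ctrl replicate 2 or 3 (adjusted p = 0.0538 and 0.0586), which left 0 higher genes. Among 13 fibroblast genes, a check for E86 cells, Pdgfrb and Col1a1 fell (15.4%, against 13.7% of all genes). Pdgfrb had 140, 142 and 137 with M33-MEIS1, against 365, 296 and 283 (-1.08 ± 0.11), and the Col1a1 call was lost in several of the alternatives, which left 1 lower gene. The collagens Col1a1, Col1a2 and Col3a1 averaged at most 16, and the summed signal of the 13 genes was 295 to 312 with M33-MEIS1, against 501 to 589 with MIY-ctrl. Of 11 dendritic cell genes 4 fell (2 under median scaling and 2 without MIY-ctrl replicate 1), led by Bst2 (-1.87 ± 0.15), itself an interferon-stimulated gene. Il5ra was the 1 of 7 eosinophil genes that fell (14.3%, against 13.7% of all genes), at means of 2.28 with M33-MEIS1 and 12.2 with MIY-ctrl. It lost its call without any 1 of 5 arrays (adjusted p = 0.0544 to 0.139).

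Set directly against the other constructs in the same fit, M33-MEIS1 differed from MEIS1-deltaHD in fewer genes than from MEIS1-WT. These contrasts use the same M33-MEIS1 arrays as the comparison with MIY-ctrl. Against MEIS1-deltaHD 53 of 18193 genes (0.291%) were called, 50 higher (0.275%) and 3 lower (0.0165%). Against MEIS1-WT 846 (4.65%) were called, 553 higher (3.04%) and 293 lower (1.61%). Of 35 interferon-stimulated genes 0 were called against MEIS1-deltaHD and 6 higher against MEIS1-WT, of 20 cholesterol genes 0 and 1 lower, and of 46 replication genes 0 and 1 higher. Against the same MIY-ctrl arrays, all 35 interferon-stimulated genes were also lower with MEIS1-WT (median -3.2) and MEIS1-deltaHD (median -3.13). Of 20 cholesterol genes 19 were higher with each, and of 46 replication genes 44 and 43, with 1 lower in each. Over all 18193 genes 2122 and 2243 were higher and 2689 and 3188 lower. The shifts of these lists were therefore not particular to M33-MEIS1. Nor were those of 5 others, with MEIS1-WT given first. Of 31 monocyte and macrophage genes 23 and 23 fell, of 24 ATF4-linked genes 17 and 20, and of 26 lysosomal genes 20 and 18. Of 30 ribosome biogenesis genes 25 and 24 rose, and of 18 heat shock chaperones 12 and 10. At most 3 members of any of these were called the other way. Of 21 mast cell and basophil genes, by contrast, 1 and 2 rose and 11 and 14 fell.

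Against MEIS1-deltaHD the higher genes included 10 of 31 monocyte and macrophage genes and 7 of 21 mast cell and basophil genes. Both lists were chosen with earlier results of these data known. Gzmb, Cma1, Tpsab1 and Tpsb2 of the mast cell list are among the 5 largest rises, so its count is not independent support. Lyz2 averaged 1345 with M33-MEIS1 and 630 with MEIS1-deltaHD (1.07, adjusted p = 1.57e-06), and Ctss averaged 530 and 249 (1.05, adjusted p = 2.94e-04). Gzmb, a serine protease of cytotoxic granules that mast cells also make, had 894, 946 and 1157 with M33-MEIS1 and averaged 258 with MEIS1-deltaHD (1.92, adjusted p = 6.31e-05). Ccl6, a myeloid chemokine, averaged 489 and 146 (1.63, adjusted p = 9.42e-07) and Mcpt8 averaged 903 and 501 (0.83, adjusted p = 1.62e-05). All 5 kept their calls in every alternative run for them. Cma1, a mast cell chymase, averaged 256 and 73.5 (1.65, adjusted p = 0.00602), but its call was lost without MEIS1-deltaHD replicate 2 (adjusted p = 0.0519) or M33-MEIS1 replicate 1 (adjusted p = 0.0551). The lower genes were Mycn, Ift27 and Atp5g1. Mycn probe set 1425923_at averaged 1724 with M33-MEIS1 and 6449 with MEIS1-deltaHD (-1.89 ± 0.09, adjusted p = 1.04e-09), while its other probe sets did not differ by a call (-0.12 and 0.09), and Ift27 (-0.50) and Atp5g1 (-0.36) lost their calls when any 1 of the 6 arrays was left out.

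Against MEIS1-WT, 21 of 31 monocyte and macrophage genes and 14 of 21 mast cell and basophil genes were higher, and 11 of 18 genes linked to Meis1 were lower. The list linked to Meis1 was chosen with earlier results of these data known. It holds Dlk1, Hlf and Rgs1, which are among the 5 largest falls from MEIS1-WT, so its count is not independent support. The same holds for the monocyte and macrophage list, with Csf1r, Tgfbi, Lyz1 and Lyz2 among the 5 largest rises. Csf1r averaged 634 with M33-MEIS1 and 32.3 with MEIS1-WT (3.76, adjusted p = 2.27e-14), Lyz2 averaged 1345 and 112 (3.42, adjusted p = 2.27e-14) and Tgfbi averaged 322 and 13.9 (3.53, adjusted p = 4.36e-11). Ifitm6 differed by 3.34 and Lyz1 by 3.42. Lower with M33-MEIS1 was Dlk1, an imprinted Notch-like ligand, at 159 against 1633 with MEIS1-WT (-3.23, adjusted p = 3.43e-12), with Hlf at 71.9 against 433 (-2.36), Rgs1 at 113 against 586 (-2.23) and Flt3 at 84.4 against 331 (-1.80). Ddx4, a germ cell helicase, averaged 28.5 and 327 (-2.96), and Slc35d3, a platelet granule protein, 17.7 and 202 (-2.68). M33-MEIS1 cultures lay below MIY-ctrl and above MEIS1-WT for Csf1r, Lyz2 and Tgfbi, with a call on both sides, and below both for Hlf, Rgs1 and Flt3.

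**Figure D5:**
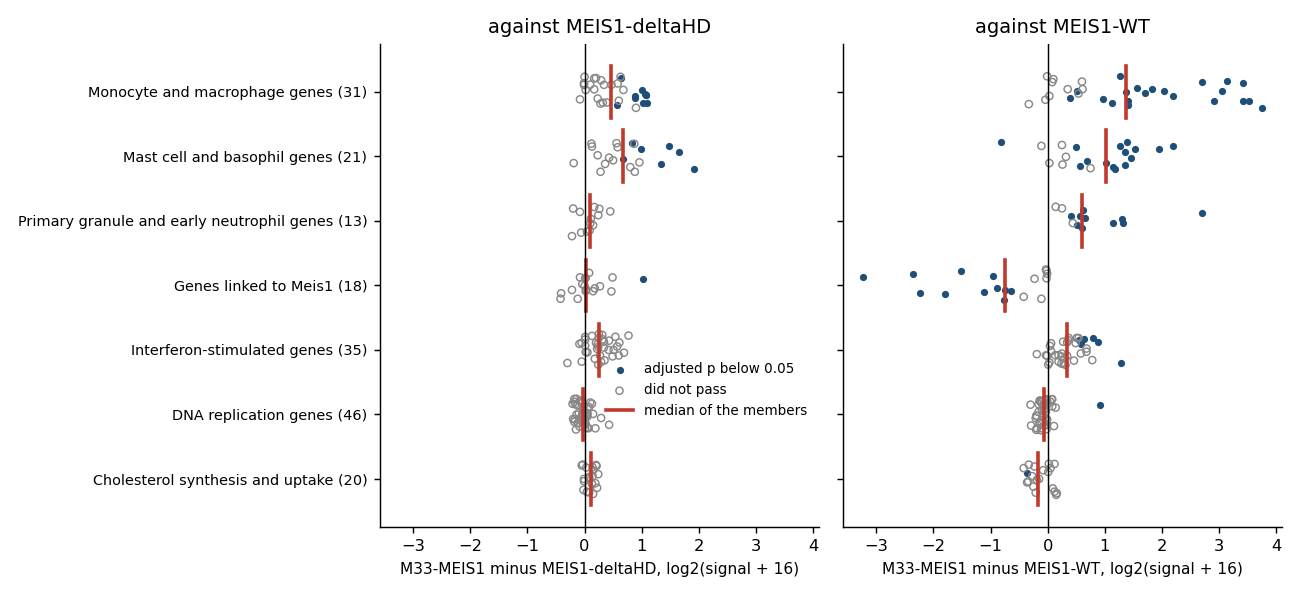
Differences of M33-MEIS1 from MEIS1-deltaHD (left) and from MEIS1-WT (right) on the log2(signal + 16) scale for the members of 7 gene lists, filled where the adjusted p is below 0.05, with red bars at list medians. Monocyte and macrophage genes have a median of 0.47 on the left and 1.37 on the right, genes linked to Meis1 0.02 and -0.75, and replication and cholesterol genes sit near 0 in both panels.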

How the data were processed

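RNA of 12 cultures, 3 per construct, was measured on Affymetrix mouse arrays. The authors deposited 1 signal intensity per probe set on a linear scale, made with GCOS 1.2 per the submitters' processing notes. In the deposited columns the 2% trimmed mean equalled 100 on each array. No label states the background settings, and the number of arrays limits the precision.

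Of 45101 probe sets, 64 array controls were left out. Signals were converted to log2(signal + 16), and limma 3.58.1 in R 4.3.3 fitted 4 groups to all 12 arrays with an intensity trend (8 residual degrees of freedom). The deposited intensities were not renormalized. Benjamini-Hochberg adjustment covered 45037 probe sets, with a threshold of 0.05. Of these probe sets 34945 had 1 gene symbol in the platform annotation, 932 several and 9160 none, and a gene was represented by its probe set with the highest mean over all arrays.

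Genes named are the 15 with the largest called rise and fall, all construct genes, up to 6 called members per list, members of lists under 15 genes, members opposite to their list, and the 5 largest differences in each direction from MEIS1-WT and MEIS1-deltaHD. Other members, most of them not called, were named after their values were seen. The members and lists were chosen with earlier results of these data known. Promoter windows came from RefSeq. Alternatives changed the pseudocount to 4 or 64, the scaling, the filter on dim probe sets (above the 40th percentile on at least 3 arrays), the trend, the arrays in the fit, the replicate block, shared probe sets, the probe set of a gene, and each array in turn. Samples with the same replicate number did not deviate together (correlations of -0.029 to 0.001 between M33-MEIS1 and MIY-ctrl). Replicate numbers are not stated to pair the samples, and no pairing was used in the main fit.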

Additional observations from a re-analysis of the deposited data

How the results depend on the processing

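Against MIY-ctrl, median scaling gave 6554 higher and 1454 lower probe sets and quantile normalization 4010 and 3436, and 2252 were higher without probe sets shared between transcripts. Leaving out 1 array gave 3077 to 3300 higher and 3833 to 4828 lower. Against MEIS1-WT, median scaling gave 577 higher and 353 lower, and leaving out 1 array 634 to 745 higher and 365 to 429 lower. Against MEIS1-deltaHD, the filter on dim probe sets gave 139 higher and 17 lower, median scaling 28 higher, the fit without a trend 18 higher and 3 lower, and the fit without shared probe sets 2 lower. Leaving out 1 array there gave 25 to 77 higher and 3 to 5 lower. The replicate block gave 3441 higher and 4779 lower against MIY-ctrl, 843 and 495 against MEIS1-WT, and 82 and 4 against MEIS1-deltaHD. Same-numbered arrays did not deviate together, but so few arrays cannot settle whether the numbers pair the samples. The cause of these shifts was not tested, apart from the fewer probe sets in the filtered fits (31762 with the dim filter and 36082 without shared probe sets).

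Of 448 genes followed against MIY-ctrl 269 were called. Changing the scaling, fit, filter or arrays ended the call of 76 of these in at least 1 alternative, and median scaling ended 71, 7 of them with a turned sign. Of the 269 genes 145 had other probe sets, 273 in all, of which 130 (in 79 genes) were not called and 0 were called in the opposite direction. Among genes named as not called, another probe set was called for Myb (0.44), Ncf1 (0.39), Ncl (0.29) and Rnf2 (-0.32). Among followed genes called in the main fit or under median scaling, 8 had the opposite sign under median scaling. They were Bcl2l1 (0.02), Cyba (0.10), Erap1 (0.31, adjusted p = 0.0489), Fcgr3 (0.04), H2-K1 (0.14), Ncf4 (0.08), Pbx3 (0.04) and Plac8 (0.11). Sign changes of genes called in neither fit were not counted. The cause was not tested. With 3 arrays per group and dim probe sets near background, small differences in dim genes were not resolved.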
